A study of Mus musculus with 4 samples.

Results

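The genes described here are the nuclear genes of oxidative phosphorylation, the subunits and assembly factors of the respiratory chain complexes and of ATP synthase that are encoded in the nucleus. They were chosen by name alone, as the probe sets annotated with a single symbol of the series Nduf (complex I), Sdh (complex II), Uqcr (complex III), Cox4 to Cox8 (complex IV) or Atp5 (complex V). This gave 175 of the 45101 probe sets on the array and 88 of the 18194 genes with a symbol. RNA was compared between the dorsal part and the ventral part of the tracheoesophageal anlage, the stretch of foregut that gives rise to the esophagus dorsally and the trachea ventrally. The tissue came from BALB/c mouse embryos at E9.75 (E, embryonic day), and no mutation or treatment is named for either group. Each part was measured on 2 Affymetrix arrays labelled as biological replicates. The parts were separated by hand under a microscope, so each holds epithelium and surrounding tissue. The sources used here do not say how many embryos went into an array or whether dorsal and ventral arrays came from the same ones, so a p-value reflects the spread between arrays and nothing wider.

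Oxidative phosphorylation takes place at the inner mitochondrial membrane. Complexes I and II pass electrons from NADH and succinate to ubiquinone, complex III passes them on to cytochrome *c*, and complex IV hands them to oxygen. Complexes I, III and IV pump protons as they do so, and complex V, the ATP synthase, uses the returning protons to make ATP. Heart muscle is rich in mitochondria, and in the heart and skeletal muscle of mammals some subunits of complex IV exist as a muscle-type isoform that takes the place of a ubiquitous one as the tissue matures.

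Values are given as robust multi-array average (RMA) values, read here as log2, so that a difference of 1 is a 2-fold change. Differences are dorsal minus ventral, and a gene was tested when 2 or more of the 4 arrays placed it above their 40th percentile. Of 13139 genes tested, 629 were higher dorsally and 538 higher ventrally by limma at an adjusted p under 0.05, and the median difference was 0.07. Ventral replicate 2 stood apart from the other arrays. It had the lowest value in 59.9% of all tested genes, and the median gene differed by 0.26 between the ventral arrays but by 0.08 between the dorsal arrays. Over all probe sets the upper quartile of ventral replicate 2 was 7.75, beside 8, 8 and 8.02 on the other arrays. Its median, 5.47, was not lower than theirs (5.45, 5.45 and 5.42). The labelled tissue carried foregut markers, with *Shh*, a signal of the ventral foregut epithelium, at 10.45 and 10.38 dorsally and 13.22 and 12.93 ventrally, while *Nkx2-1*, the factor that marks the respiratory epithelium, lay only between 5.03 and 5.25. Each value comes from whole tissue, in which fewer cells of a type and less RNA per cell cannot be told apart.

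Most of these genes were highly expressed in both parts and differed little between them. Of the 88 genes, 84 were tested, and 66 of these lay above the 90th percentile of the array on all 4 arrays. The median difference over the 84 was 0.16, beside 0.07 over all tested genes. Of the 84, 77 (91.7%) had a positive difference, beside 61.6% of all tested genes. With the filter at the 60th percentile, all tested genes had a median of 0.11 and 69.7% were positive. The 82 genes of oxidative phosphorylation left by that filter had a median of 0.16, and 92.7% were positive. *Ndufaf2*, an assembly factor of complex I, was the 1 gene of the 84 higher dorsally by limma with Benjamini-Hochberg adjustment, where 4.79% of all tested genes were. None was higher ventrally, where 4.09% of all tested genes were. At an unadjusted p under 0.05, 8 of the 84 were higher dorsally and 0 ventrally, beside 11.0% and 7.98% of all tested genes. The differences ran from -0.37 for *Cox8c* to 0.62 for *Ndufaf2*, and 74 of the 84 (88.1%) lay within 0.3 of 0, beside 73.0% of all tested genes. For 83 of the 84 the 95% interval of the difference lay within 2-fold in either direction, beside 92.5% of all tested genes, and the exception was *Ndufaf2*. The standard errors ran only from 0.167 to 0.190, because limma draws the spread of each gene in part from all tested genes. The intervals were thus nearly equal in width, and the count within 2-fold follows from the small differences.

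**Figure D1:**
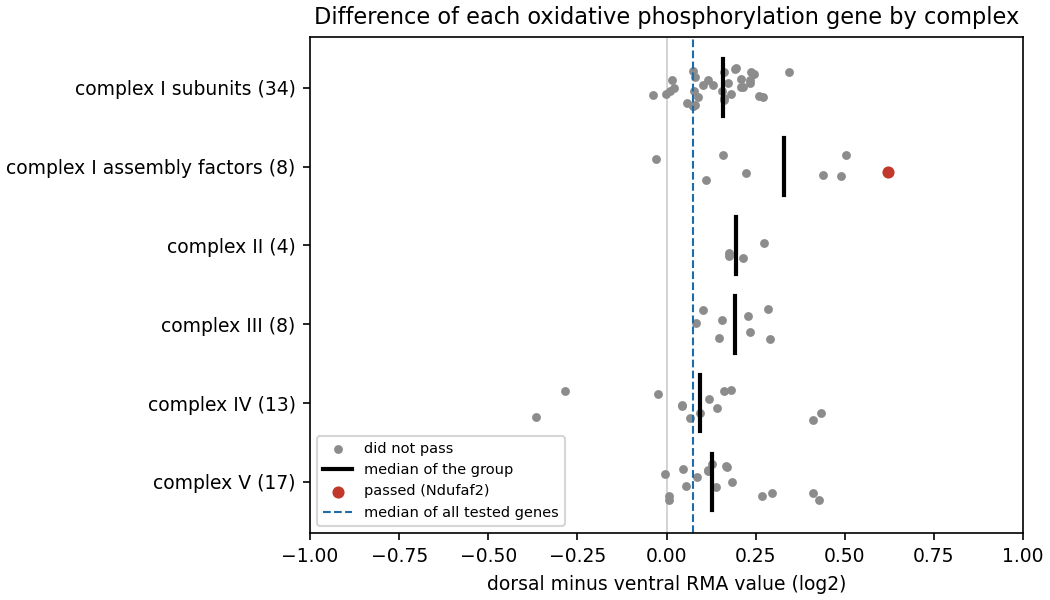
Each of the 84 tested genes, by complex, placed by its dorsal minus ventral RMA value (log2) on the horizontal axis, with the median of each group as a black bar and the median of all tested genes (0.07) as a dashed line. The complex I assembly factors reach furthest to the right, up to 0.62 for *Ndufaf2*, and 2 genes of complex IV lie furthest to the left.

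The shift toward the dorsal part moved with 1 array. The median of the 84 genes was 11.64 and 11.67 on the dorsal arrays, 11.64 on ventral replicate 1 and 11.42 on ventral replicate 2. Ventral replicate 1 was thus level with the dorsal arrays, and ventral replicate 2 was lower. Ventral replicate 2 had the lowest value in 77 of the 84 genes (91.7%), beside 59.9% of all tested genes. Between the arrays numbered 1 the median difference was 0.04, and between those numbered 2 it was 0.25, where all tested genes gave 0.00 and 0.18. Without ventral replicate 2 the median of the 84 genes was 0.03, beside 0.00 over all tested genes. In that setting 50 of the 84 (59.5%) were positive, beside 50.0% of all tested genes. When the arrays were quantile normalized once more, the median was 0.05, beside -0.02 over all tested genes. Of the 84 genes 55 (65.5%) were then positive, beside 47.0%. Without ventral replicate 1, so that ventral replicate 2 alone stood for the ventral part, the median was 0.27, beside 0.18 over all tested genes.

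**Figure D2:**
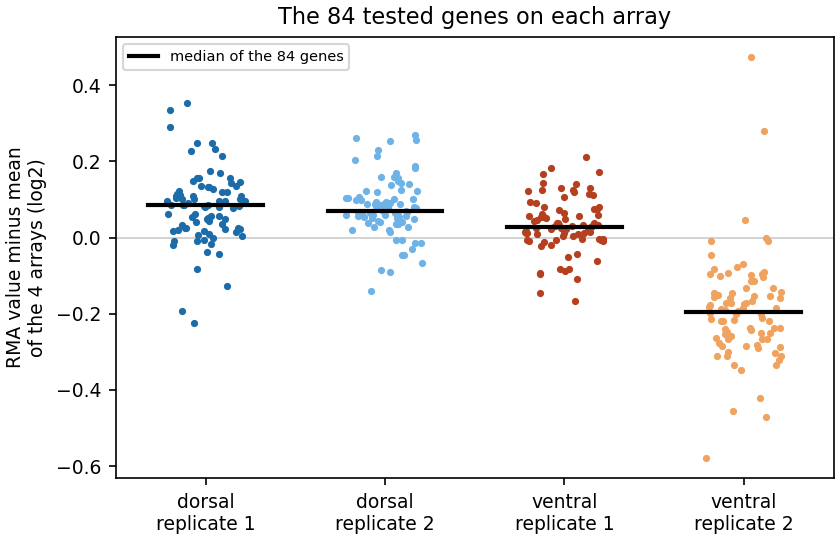
RMA value of each of the 84 tested genes on each array, minus its mean over the 4 arrays (log2, vertical axis), with the median of the genes as a black bar. The points of ventral replicate 2 lie mostly below 0, and it is the lowest array in 77 of the 84 genes.

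Complex I takes electrons from NADH and is the largest complex of the chain. Of its 35 subunit genes, 34 were tested. None passed the limma test, also at an unadjusted p under 0.05, and the median difference was 0.16, with 32 of 34 positive. The dorsal arrays both lay above the ventral ones in 18 of the 34, and over all tested genes this was so for 33.3%. The largest difference was that of *Ndufv1*, the subunit that binds NADH. It stood at 12.16 and 12.19 dorsally and 11.92 and 11.74 ventrally, and although the parts did not overlap, the difference of 0.34 (95% interval -0.01 to 0.70) did not pass (limma adjusted p = 0.276). *Ndufb10*, an accessory subunit of the membrane arm, was at 9.86 and 9.89 dorsally and 9.76 and 9.46 ventrally, a difference of 0.27 (limma adjusted p = 0.441). The iron-sulfur subunits that carry electrons onward gave differences of 0.08 for *Ndufs1*, 0.26 for *Ndufs7* and 0.23 for *Ndufs8*. At the other end stood the accessory subunit *Ndufb5*, at 11.44 and 11.39 dorsally and 11.42 and 11.48 ventrally, with the parts overlapping. *Ndufa4*, which carries a complex I symbol but has since been assigned to complex IV, differed by 0.21.

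The subunit *Ndufb4* was not tested, since its own probe set read 3.85 and 3.45 dorsally and 3.74 and 3.53 ventrally, below the 40th percentile on every array. A probe set shared with its near copies *Ndufb4b* and *Ndufb4c* read 11.03 and 11.07 dorsally and 10.90 and 10.81 ventrally. Which of the copies that signal came from is not known.

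The largest differences lay among the complex I assembly factors, proteins that build the complex but are not part of the finished enzyme. All 8 Ndufaf genes were tested, and their median difference was 0.33, with 7 of 8 positive. *Ndufaf2*, a chaperone related to the subunit Ndufa12, was at 9.33 and 9.25 dorsally and 8.94 and 8.40 ventrally. The parts did not overlap, though the gap between the ventral arrays exceeded that between ventral replicate 1 and the dorsal arrays. The difference was 0.62 (SE 0.187, 95% interval 0.23 to 1.01, limma adjusted p = 0.0387). It was 0.40 for the pair of arrays numbered 1 and 0.85 for the pair numbered 2. The call was lost without dorsal replicate 1 (0.58, limma adjusted p = 0.626), without dorsal replicate 2 (0.66, adjusted p = 0.396) and without ventral replicate 2 (0.35, adjusted p = 0.0781), and under all settings tried the limma adjusted p ran from 0.00601 to 0.626.

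*Ndufaf6* followed, at 9.09 and 9.09 dorsally and 8.79 and 8.38 ventrally. Its difference of 0.50 (SE 0.178, 95% interval 0.13 to 0.88) did not pass (limma adjusted p = 0.0931). *Ndufaf4* and *Ndufaf5* are named because of their values. *Ndufaf4* was at 11.42 and 11.46 dorsally and 11.03 and 10.88 ventrally, a difference of 0.49 (SE 0.168, limma adjusted p = 0.0834). Its ventral arrays lay closer together than those of *Ndufaf2* or *Ndufaf6*, with differences of 0.39 and 0.58 within the arrays numbered 1 and 2, and its second probe set read 9.24 and 9.21 dorsally and 8.85 and 8.58 ventrally. *Ndufaf5*, which modifies the subunit Ndufs7 in human cells, was at 8.56 and 8.53 dorsally and 8.36 and 7.86 ventrally (difference 0.44, limma adjusted p = 0.185). The other 4 factors lay closer to 0, at 0.22 for *Ndufaf8*, 0.16 for *Ndufaf1*, 0.11 for *Ndufaf7* and -0.03 for *Ndufaf3*. Without ventral replicate 2, the median of the 8 was 0.19 and 5 of 8 were positive, beside 50.0% of all tested genes.

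**Figure D3:**
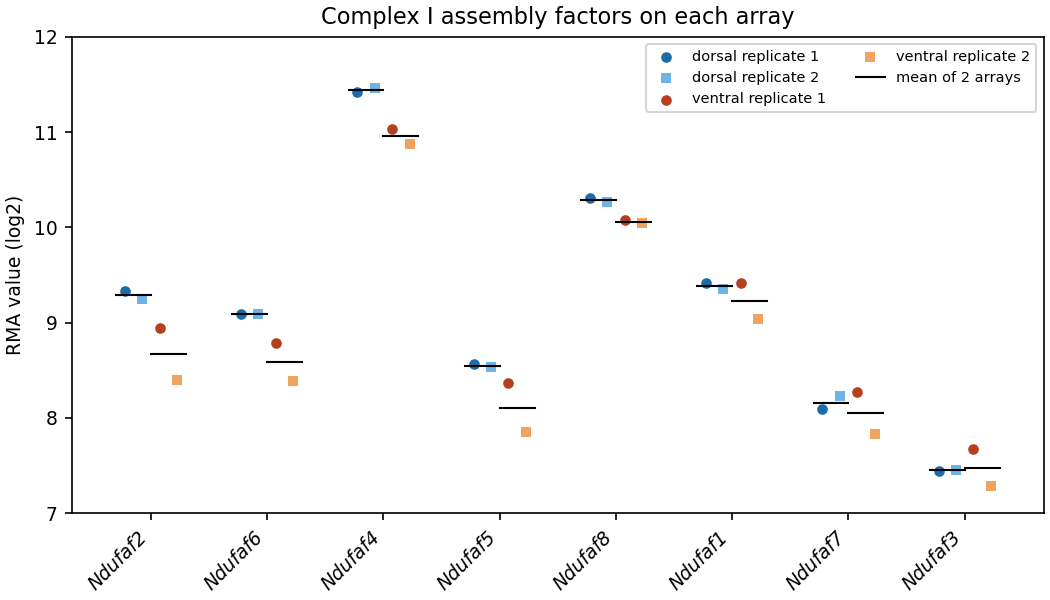
RMA values (log2, vertical axis) of the 8 complex I assembly factors on each of the 4 arrays, with the mean of the 2 arrays of each part as a black line. *Ndufaf2*, *Ndufaf4*, *Ndufaf5*, *Ndufaf6* and *Ndufaf8* have both dorsal arrays above both ventral arrays, as do 33.3% of all tested genes. Ventral replicate 2 is the lowest array for all 8, beside 59.9% of all tested genes.

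Marker lists of other cell types differed between the parts as well. Beside the counts below, 4.79% of all tested genes were higher dorsally and 4.09% ventrally by limma. Of 6 tested neural crest genes, 5 were higher dorsally and 1 ventrally, with mean levels of 8.13 and 8.30 dorsally and 6.44 and 6.40 ventrally. The call of 1 of these, *Foxd3*, rests on ventral values below the 40th percentile. Of 6 tested red cell genes, 3 were higher dorsally, with mean levels of 10.97 and 10.96 dorsally and 10.40 and 10.04 ventrally. *Hba-a1*, an adult alpha globin gene, was not tested, since it lay below the 40th percentile on every array. Of 7 foregut mesenchyme genes 4 were higher ventrally (median -0.71), and of 8 foregut epithelium genes 2 were higher ventrally and 1 dorsally (median -0.45). Of 6 smooth muscle genes 2 were higher dorsally and 1 ventrally (median 0.05). None of 6 endothelial genes passed by limma (median 0.12). At an unadjusted p under 0.05, 1 of the 6 was higher ventrally, where 7.98% of all tested genes were. The part of these cells in the values of the assembly factors was not tested.

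The stretches before the start sites of *Ndufaf2* and *Ndufaf4* are shown because the former was the gene that passed and the latter carries a match to the core site of NRF1, a transcription factor known for activating nuclear genes of the respiratory chain. Each runs 5′ to 3′ over the 250 bases before the first start that RefSeq lists on GRCm38.p6, on the minus strand at chr13:108158626-108158875 for *Ndufaf2* and on the plus strand at chr4:24897833-24898082 for *Ndufaf4*. Capitals mark matches on either strand to the core of the NRF1 consensus (the consensus without its outermost bases), to the sites of ETS factors (CCGGAAG) and Sp1 (the GC box, GGGCGG), to an E box (CAGCTG) or to the MEF2 consensus, and neighbouring matches may overlap.
Ndufaf2: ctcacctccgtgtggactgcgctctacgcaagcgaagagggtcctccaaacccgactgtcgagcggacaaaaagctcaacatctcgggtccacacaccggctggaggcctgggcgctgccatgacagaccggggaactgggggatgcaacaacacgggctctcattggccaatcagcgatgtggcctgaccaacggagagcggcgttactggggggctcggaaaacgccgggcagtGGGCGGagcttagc
Ndufaf4: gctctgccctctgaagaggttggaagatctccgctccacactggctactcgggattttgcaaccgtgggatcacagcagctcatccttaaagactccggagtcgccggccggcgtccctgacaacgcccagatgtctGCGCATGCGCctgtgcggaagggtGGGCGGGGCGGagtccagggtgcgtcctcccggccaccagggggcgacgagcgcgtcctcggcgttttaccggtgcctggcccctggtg
*Ndufaf2* holds a GC box close to its start, and *Ndufaf4* holds the NRF1 core followed by GC boxes that overlap. Of the 88 genes, 73 had such a promoter in the RefSeq table of 27025 genes. The NRF1 core was present in 6 of the 73 (8.22%), namely *Atp5g2*, *Atp5k*, *Cox6a1*, *Ndufaf4*, *Ndufb4* and *Sdhd*, beside 1.89% of all promoters, and the full NRF1 consensus in 3 (4.11%, beside 1.01%). The ETS site was present in 13 (17.8%, beside 7.05%) and the GC box in 30 (41.1%, beside 32.9%). The E box was present in 6 (8.22%, beside 12.8%) and the MEF2 consensus in 0, beside 3.01%. These are matches of letters and say nothing of binding in this tissue. The motifs were settled after the genes' values were known.

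Complex II, succinate dehydrogenase, has only nuclear subunits. All 4 genes had a positive difference, from 0.17 for *Sdha*, the flavoprotein that oxidizes succinate, to 0.27 for *Sdhc*, a membrane anchor, and none passed. *Sdhc* was at 9.79 and 9.97 dorsally and 9.78 and 9.43 ventrally (limma adjusted p = 0.446). Dorsal replicate 1 and ventral replicate 1 were level, and ventral replicate 2 was lower. *Sdhb*, the iron-sulfur subunit, was at 11.55 and 11.54 dorsally and 11.48 and 11.18 ventrally (difference 0.21, limma adjusted p = 0.555). The median of the 4 was 0.04 between the arrays numbered 1 and 0.35 between those numbered 2.

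The 8 genes of complex III, the cytochrome *bc*1 complex, also had positive differences without any passing, from 0.08 for the core protein *Uqcrc2* to 0.29 for the small subunit *Uqcr10*. *Uqcr10* was at 9.56 and 9.18 dorsally and 9.22 and 8.94 ventrally, so that the parts overlapped (limma adjusted p = 0.424). *Uqcr11*, another small subunit, was at 11.53 and 11.57 dorsally and 11.43 and 11.10 ventrally, a difference of 0.28 (limma adjusted p = 0.414). *Uqcrfs1*, the Rieske iron-sulfur protein, differed by 0.10. The median of the 8 was 0.19, and 0.05 without ventral replicate 2.

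Complex V, the ATP synthase, was represented by 17 genes, all tested, with a median difference of 0.13 and 16 of 17 positive. None passed after adjustment. At an unadjusted p under 0.05, 2 of the 17 were higher dorsally by limma, where 11.0% of all tested genes were. *Atp5e*, the epsilon subunit of the central stalk, was at 11.13 and 11.13 dorsally and 10.82 and 10.58 ventrally, a difference of 0.43 (95% interval 0.07 to 0.78, limma adjusted p = 0.153). *Atp5g1*, a gene for subunit c of the membrane ring, was at 10.81 and 10.64 dorsally and 10.53 and 10.10 ventrally (difference 0.41, limma adjusted p = 0.211). The parts did not overlap for either gene. The other genes for the identical mature subunit c differed by 0.30 (*Atp5g2*) and 0.13 (*Atp5g3*). The catalytic subunit *Atp5b* differed by 0.01, at 12.98 and 12.91 dorsally and 13.13 and 12.75 ventrally, with both dorsal values between the ventral ones.

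Complex IV, cytochrome *c* oxidase, had the lowest median difference, 0.10, over 13 tested genes of 16, with 10 of 13 positive. It also spread the furthest of the complexes' subunits, and the genes at both of its ends included isoforms known from single tissues. None passed after adjustment. At an unadjusted p under 0.05, 2 of the 13 were higher dorsally by limma, where 11.0% of all tested genes were. *Cox6b2*, known as the testis isoform of subunit 6b, was at 6.25 and 6.19 dorsally and 5.86 and 5.72 ventrally (difference 0.43, 95% interval 0.08 to 0.78, limma adjusted p = 0.142), and its ubiquitous counterpart *Cox6b1* differed by 0.18 (limma adjusted p = 0.613). *Cox7c*, a ubiquitous subunit, was at 7.35 and 7.45 dorsally and 7.14 and 6.85 ventrally (difference 0.41, limma adjusted p = 0.188). The dorsal values of *Cox6b2* and *Cox7c* lay above the ventral ones. The reverse held for 2 of the 84 genes, *Cox8c* and *Cox6a2*, where 17.6% of all tested genes had both ventral arrays above both dorsal ones.

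*Cox8c*, known as the testis isoform of subunit 8, was at 7.20 and 7.28 dorsally and 7.32 and 7.90 ventrally. Its difference of -0.37 (SE 0.190, 95% interval -0.76 to 0.03) did not pass (limma adjusted p = 0.312) and came mostly from ventral replicate 2. *Cox4i2*, known from lung, was close to the 40th percentile, at 4.85 and 5.09 dorsally and 5.10 and 4.89 ventrally, and overlapped between the parts, as did its ubiquitous counterpart *Cox4i1*, at 13.29 and 13.09 dorsally and 13.29 and 12.96 ventrally. *Cox7b2*, a testis isoform, read 2.98 and 2.93 dorsally and 3.21 and 3.19 ventrally and was not tested.

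For 3 subunits of complex IV, 6a, 7a and 8, the array carried both a ubiquitous isoform and the isoform of heart and skeletal muscle. Among the ubiquitous ones, *Cox6a1* was at 13.44 and 13.48 dorsally and 13.40 and 13.24 ventrally (difference 0.14, limma adjusted p = 0.700). *Cox7a2* was at 13.43 and 13.42 dorsally and 13.44 and 13.33 ventrally (difference 0.04, limma adjusted p = 0.920), and the parts overlapped. *Cox8a* was at 10.59 and 10.55 dorsally and 10.50 and 10.32 ventrally (difference 0.16, limma adjusted p = 0.657). The parts were apart by little for *Cox6a1* and *Cox8a*, and no ubiquitous isoform passed.

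Of the muscle-type isoforms, only *Cox6a2* reached the level for testing. It was at 6.17 and 6.27 dorsally and 6.37 and 6.64 ventrally, so that both ventral arrays lay above the dorsal ones. Its difference of -0.29 (SE 0.173, 95% interval -0.64 to 0.07) did not pass (limma adjusted p = 0.407). *Cox7a1* read 3.92 and 3.73 dorsally and 3.75 and 3.61 ventrally, and *Cox8b* read 4.42 and 4.31 dorsally and 4.08 and 4.75 ventrally. Both lay below the 40th percentile on every array, so no difference is given for them. Subtracting the difference of *Cox6a1* from that of *Cox6a2* gave -0.43 (pooled SD between arrays 0.22), with -0.24 for the pair of arrays numbered 1 and -0.61 for the pair numbered 2. The exact two-sided permutation test gave p = 0.333, the smallest that 2 against 2 arrays allow, and it was run for this 1 pair.

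**Figure D4:**
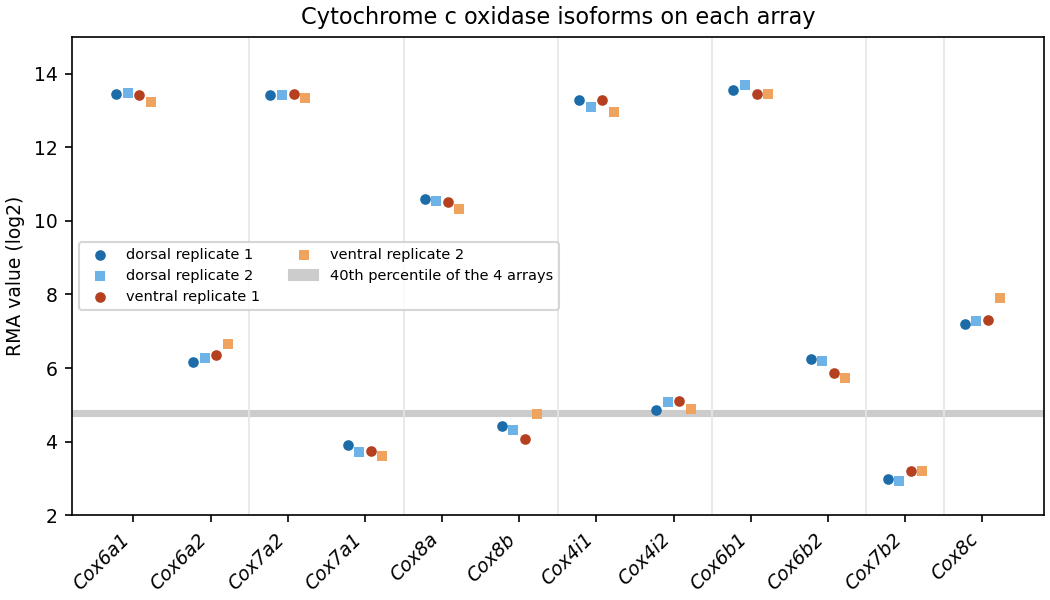
RMA values (log2, vertical axis) of the ubiquitous and tissue-restricted isoforms of cytochrome *c* oxidase subunits on each of the 4 arrays, with the 40th percentile of the arrays as a grey band. The muscle-type *Cox7a1* lies below the band, *Cox8b* lies below it or, on ventral replicate 2, inside it but under that array's own percentile, and *Cox6a2* lies above it with both ventral arrays above the dorsal ones.

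The stretches before the start of 5 of the 6 isoforms are shown to compare the ubiquitous with the muscle-type genes by the letters they hold. *Cox6a2*, the muscle-type isoform that was tested, is named only. The stretches cover the 250 bases before the first RefSeq start on GRCm38.p6, with the same motifs in capitals. The ubiquitous genes are at chr5:115348959-115349208 (*Cox6a1*), chr9:79759854-79760103 (*Cox7a2*) and chr19:7217617-7217866 (*Cox8a*), all on the minus strand. The muscle-type genes are at chr7:30183921-30184170 on the plus strand (*Cox7a1*) and chr7:140900447-140900696 on the minus strand (*Cox8b*).
Cox6a1: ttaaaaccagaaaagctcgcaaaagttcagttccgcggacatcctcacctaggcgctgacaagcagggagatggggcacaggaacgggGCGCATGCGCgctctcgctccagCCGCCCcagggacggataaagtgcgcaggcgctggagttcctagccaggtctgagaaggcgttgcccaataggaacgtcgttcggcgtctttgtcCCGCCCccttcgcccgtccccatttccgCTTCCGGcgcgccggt
Cox7a2: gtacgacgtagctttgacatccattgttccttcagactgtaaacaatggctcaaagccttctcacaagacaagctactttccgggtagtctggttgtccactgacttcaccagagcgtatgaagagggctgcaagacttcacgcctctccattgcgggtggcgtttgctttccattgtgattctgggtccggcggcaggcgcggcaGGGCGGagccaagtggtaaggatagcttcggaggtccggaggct
Cox8a: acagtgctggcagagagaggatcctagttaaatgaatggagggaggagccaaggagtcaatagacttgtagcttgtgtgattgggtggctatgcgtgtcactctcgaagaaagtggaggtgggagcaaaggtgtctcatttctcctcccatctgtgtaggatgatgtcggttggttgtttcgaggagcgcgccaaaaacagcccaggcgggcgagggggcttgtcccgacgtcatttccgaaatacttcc
Cox7a1: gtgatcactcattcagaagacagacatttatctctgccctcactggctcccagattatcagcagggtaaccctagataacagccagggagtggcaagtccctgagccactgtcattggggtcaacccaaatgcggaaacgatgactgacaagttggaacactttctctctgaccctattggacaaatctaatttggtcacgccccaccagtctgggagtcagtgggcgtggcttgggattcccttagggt
Cox8b: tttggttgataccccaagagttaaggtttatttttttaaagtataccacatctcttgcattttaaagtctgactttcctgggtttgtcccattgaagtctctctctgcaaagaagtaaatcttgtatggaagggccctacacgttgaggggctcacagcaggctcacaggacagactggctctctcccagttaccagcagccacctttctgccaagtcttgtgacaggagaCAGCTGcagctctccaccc
*Cox6a1* holds the NRF1 core, the ETS site and GC boxes together, *Cox7a2* holds a GC box, and *Cox8a* and *Cox7a1* hold none of the motifs searched. *Cox8b* holds the E box, the kind of site that MyoD and related muscle factors are known to bind, close to its start. None of the 5 windows matches the MEF2 consensus.

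Heart muscle genes stood far higher in the ventral part, by a median larger than the difference of any gene of oxidative phosphorylation. Of 18 heart muscle genes, 16 were tested and 13 were higher ventrally by limma, beside 4.09% of all tested genes. The median difference of the 16 was -3.30. Their mean level was 6.002 and 5.96 dorsally and 8.91 and 8.70 ventrally. *Tnnt2*, the cardiac troponin T gene, was at 5.99 and 5.92 dorsally and 11.46 and 11.14 ventrally. *Myh6*, which encodes alpha myosin heavy chain, was at 3.87 and 3.93 dorsally, below the 40th percentile, and at 10.07 and 10.05 ventrally. The size of its difference, which enters the list median, thus rests on dorsal values below that percentile. Of genes of muscle mitochondria, 3 were tested and none passed after adjustment. *Fabp3*, a fatty acid binding protein of heart and muscle, was at 6.63 and 6.58 dorsally and 6.48 and 5.86 ventrally, a difference of 0.44 with limma adjusted p = 0.211, and it was the 1 of the 3 under 0.05 before adjustment. *Slc25a4*, the ADP/ATP carrier of heart and muscle, was at 13.27 and 13.26 dorsally and 13.27 and 13.00 ventrally, and *Mb*, myoglobin, differed by 0.08. The muscle creatine kinase of mitochondria, *Ckmt2*, lay below the 40th percentile on every array. Skeletal muscle genes were largely low, with 5 of 9 tested and *Myod1*, *Myog*, *Myf5* and *Myf6* not among them. The embryonic myosin gene *Myh3* passed as higher dorsally by 1.33, but its ventral values lay below the 40th percentile, and set to that percentile they left a difference of 0.10. The part of muscle cells in the values of *Cox6a2* and the other genes was not tested.

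The other lists of mitochondrial genes had small positive medians too. Of 76 genes of the mitochondrial ribosome, none passed by limma and 7 did at an unadjusted p under 0.05, all higher dorsally, where 11.0% of all tested genes were. Their median difference was 0.24, and ventral replicate 2 was the lowest array for 75 of the 76, beside 59.9% of all tested genes. None of 12 genes of the tricarboxylic acid cycle passed, also unadjusted, with a median of 0.14 and ventral replicate 2 lowest for all 12. None of 28 assembly factors of the complexes outside the Ndufaf series passed, and 1 did unadjusted, higher dorsally. Their median was 0.21. Cytochrome *c* (*Cycs*) differed by 0.06 and cytochrome *c*1 (*Cyc1*) by 0.05. The mitochondrial genome was represented by *ND5*, a complex I subunit, at 11.25 and 11.20 dorsally and 11.11 and 10.91 ventrally (difference 0.21, limma adjusted p = 0.545).

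Among 14 regulators of mitochondrial biogenesis, 2 passed by limma, both higher ventrally, where 4.09% of all tested genes were. The median difference of the 14 was 0.10. At an unadjusted p under 0.05, 2 were higher dorsally and 2 ventrally by limma, beside 11.0% and 7.98% of all tested genes. *Esrrg*, an orphan nuclear receptor known for activating oxidative metabolism genes in the heart, was at 5.81 and 5.97 dorsally and 9.05 and 8.85 ventrally, with the parts far apart. Its difference was -3.06 (limma adjusted p = 1.53e-11), and -3.25 and -2.88 within the arrays numbered 1 and 2. With the mean of all its probe sets it was -1.16 (limma adjusted p = 0.000607). *Ppargc1a*, a coactivator of mitochondrial biogenesis, was at 3.80 and 4.22 dorsally, below the 40th percentile, and at 4.92 and 5.21 ventrally. It met the filter through its ventral arrays alone, so it was not tested with either of them left out. Its fitted difference was -1.05 (limma adjusted p = 0.000323), but -0.34 when the dorsal values were set to that percentile. The call was lost without dorsal replicate 1 (-0.85), where only the ventral arrays gave a spread. *Nrf1*, whose factor's site is the NRF1 motif, was at 8.21 and 8.21 dorsally and 7.95 and 7.69 ventrally and did not pass (limma adjusted p = 0.212), nor did *Tfam*, the factor that packages and transcribes the mitochondrial genome (difference 0.12, limma adjusted p = 0.751).

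**Figure D5:**
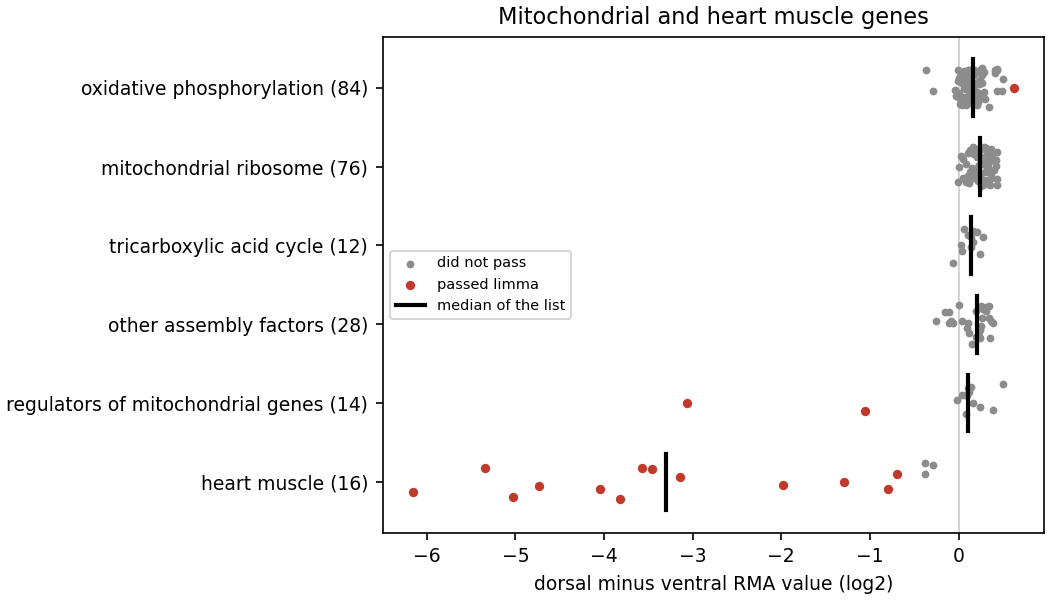
Each tested gene of the mitochondrial lists and the heart muscle list, placed by its dorsal minus ventral RMA value (log2) on the horizontal axis, with the median of each list as a black bar and genes that passed limma in red. Most genes of the mitochondrial lists lie close to 0, *Esrrg* and *Ppargc1a* lie apart at -3.06 and -1.05, and the heart muscle genes extend to -6.16.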

How the data were processed

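RNA of the dorsal and ventral parts was measured on 2 Affymetrix arrays each, from 100 ng of total RNA. The submitters' processing notes name RMA as the method by which the authors made the expression values they deposited, taken here to be log2 from their range of 2.36 to 15.02. Of the RMA software, the version is not stated in these sources. No detection calls were used. Precision is limited by the number of arrays.

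Symbols came from GEO's platform annotation, in which 34958 probe sets had 1 symbol, 932 had several and 9211 were unnamed here. The identifiers of all 88 genes were found in the RefSeq table of GRCm38.p6. Complexes were read from the symbols. The probe set with the highest mean stood for each gene. Groups were compared with lmFit and eBayes of limma 3.58.1 (R 4.3.3), two-sided, over 13139 genes with Benjamini-Hochberg adjustment, after the script was tested on simulated data. No other normalization was applied.

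The genes, lists and tests were chosen with earlier results of these data known. Named genes are all tissue-restricted isoforms with their counterparts, in each complex those past the threshold or otherwise the 2 with the largest difference, the highest and lowest of all, and up to 3 called genes of a list. Other genes were named after their values were seen. Alternatives covered the filter, normalization, probe set choice, eBayes settings, replicate number and each array left out.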

Additional observations from a re-analysis of the deposited data

How the results depend on the processing

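The count of oxidative phosphorylation genes higher dorsally, 1 of 84, was 0 with no filter, with quantile normalization once more, with the mean of all probe sets, with every probe set on its own and at an adjusted p under 0.01. In those settings 2.90% to 3.65% of all tested genes or probe sets were higher dorsally. The count was 2 with eBayes with a trend (*Ndufaf2* and *Ndufaf4*), beside 5.36% of all tested genes. It was 3 (*Ndufaf2*, *Ndufaf4* and *Ndufaf6*) with the filter at the 60th percentile, beside 6.41%, or at an adjusted p under 0.1, beside 6.01%. With the replicate number as a block it was 2 (*Ndufaf2* and *Ndufaf6*), beside 790 genes of the whole table (6.01%) higher dorsally and 678 (5.16%) ventrally. The labels do not say that the numbers pair the arrays. Over the 13139 tested genes, the difference between replicates 1 and 2 in the dorsal part correlated at 0.14 with that in the ventral part. The 27 poly-A control probe sets of the array read higher on replicate 2 than on replicate 1, by a mean of 1.9 dorsally and 1.6 ventrally. Leaving out each array gave counts from 0 (without either dorsal array) to 37 (without ventral replicate 1), and counts higher ventrally from 0 to 2 (*Cox6a2* and *Cox8c*, without ventral replicate 1). With an array left out, the spread was estimated from the part that still had 2, and the lone array was assumed to vary like it. Without ventral replicate 2 the difference was 0.35 for *Ndufaf2* and 0.41 for *Ndufaf4*. The median of the 84 genes, 0.16, became 0.0451 with quantile normalization once more and ran from 0.0339 to 0.266 with an array left out. Over all tested genes the median, 0.07, became -0.0158 and ran from 0.0001 to 0.18. The same settings gave 0.0479 and 0.0215 to 0.266 for complex I subunits, and 0.0159 and 0.0326 to 0.225 for complex V, while the median of complex IV, 0.10, was -0.01 with quantile normalization once more and without ventral replicate 2. Quantile normalization once more turned the split of all calls from 629 dorsal and 538 ventral to 479 and 635. Of the alternative values for named genes, 315 kept their side of the threshold, 310 of them with their direction and 5 without (*Cox4i2* and *Cox7a2*, both close to 0), 21 moved past it and 9 fell short of it. The causes were not tested. With 2 arrays per part, differences of the size seen in most of these genes could not be told from 0.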
